A study of Mus musculus with 4 samples.

Results

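Protein-folding genes of the DnaJ and TRiC families were examined in mouse bone marrow cells that had been differentiating into macrophages during space flight. A gene was included where a probe set of the array carried its symbol alone and the symbol was either Dnaja, Dnajb or Dnajc with a number, or 1 of the 8 subunits of the TRiC ring. Dnajb9 and Dnajc3 were left out by that rule, and Dnajc19 because its 3 probe sets carry more than 1 symbol. The members were 42 DnaJ genes with 98 probe sets and 8 TRiC genes with 25 probe sets, 50 of the 18193 genes with a probe set of their own.

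The space flight group was 2 arrays of C57BL/6 marrow cultures that flew on a space shuttle, and the ground control group was 2 arrays of parallel cultures held at the same temperatures on the ground. Marrow of 21 mice over 8 weeks old was pooled before it was divided, so the replicates are culture pools and not animals, and p-values cover only the spread between such pools and their arrays. All cultures were kept at 37 °C with 1.5 µg/ml of macrophage colony-stimulating factor, which turns marrow progenitors into macrophages. Medium was added on culture day 6, flight day 5. The cultures were lysed on culture day 15, flight day 14, and each array held the RNA of 2 culture barrels. Of 4 such pools per group, the 2 with the best RNA were put on arrays.

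DnaJ proteins, also called Hsp40 proteins, carry a J domain with which they bring unfolded proteins to Hsp70 chaperones and set off the ATP hydrolysis that clamps Hsp70 onto its client. Most cells have many of them, each sending Hsp70 to a different site or task, and Dnajb1 is a classic target of the heat shock factor Hsf1. TRiC, also called CCT, is a chaperonin of stacked rings that encloses newly made proteins while they fold, actin and tubulin above all, and prefoldin hands such clients to it.

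No DnaJ or TRiC gene passed the test for a difference between space flight and ground control. Values are quantile normalized log2 intensities, differences are space flight minus ground control, and the test is limma's moderated test over all 45037 probe sets with Benjamini-Hochberg adjustment at 0.05. Of the 123 member probe sets 0 were called higher, against a background of 0% of all probe sets, and 0 were called lower, again against 0%. The lowest adjusted p of any member probe set was 0.385, and that of any probe set on the arrays was 0.062. At an unadjusted p under 0.05 there were 4 member probe sets higher, or 3.25% where 4.14% of all probe sets were, and 3 lower, or 2.44% where 4.60% of all were. With each array shifted to 1 median, these counts were 0 higher and 3 lower among members, beside 2.32% and 6.24% of all probe sets. The counts moved with single arrays, for members and for all probe sets. Without space flight array 1, 9 members were higher and 11 lower, beside 7.72% and 8.28% of all, and without space flight array 2 there were 10 and 8, beside 5.94% and 5.90% of all. Leaving out ground control array 1 gave 1 higher and 2 lower members, beside 1.37% and 2.39% of all, and leaving out ground control array 2 also gave 1 and 2, beside 1.67% and 2.48% of all.

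Each gene was then represented by its brightest probe set, and 0 of the 50 member genes were higher or lower at an unadjusted p under 0.05 in limma, where 5.07% of all genes were higher and 5.06% lower. Both space flight arrays lay above both ground control arrays for 11 of the 50 genes, 22.0% where 21.5% of all genes did. Both lay below for another 11, or 22.0% where 19.6% of all genes did. In 42 of the 50 genes (84%) the difference was smaller than 0.5 in size, as it was in 62.3% of all genes, and 22 of the 50 (44%) stood above 0, as 52.5% of all genes did. Of the members, 8 of the 50 (16%) lay below 6.40, the median level of all probe sets, which is called dim here, as 38.8% of all genes did. Whether members differ from other genes in these shares was not tested. The median difference was −0.13 over the DnaJ genes and 0.13 over the TRiC genes, where that of all genes was 0.03.

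The arrays themselves were uneven. RNA integrity numbers were 3 for every pool. The labels give 21.2 to 25 ng of RNA per pool in space flight and 12.5 to 24.1 ng in ground control. They also give 50 ng as the amount primed, and which is right was not settled. The Gapdh control, whose 3' to 5' ratio grows as RNA breaks, had ratios of 4.09 and 15.2 in space flight and 4.13 and 3.33 in ground control. For the Actb control the ratios were 3.08 and 4.91 in space flight, both higher than the 2.30 and 2.84 in ground control. The part of RNA breakage in the differences was not tested. Replicates of a member gene differed with an SD across genes of 0.85 in space flight and 0.49 in ground control. No gene of the marker lists for macrophages and other cells passed the test, and the lowest adjusted p in limma was 0.131, in the neutrophil list. The neutrophil genes had both space flight arrays above both ground control arrays in 10 of 10, where 21.5% of all genes did, with mean levels of 11.37 and 11.93 in space flight and 10.06 and 10.20 in ground control. Erythroid genes did so in 4 of 5, with mean levels of 8.58 and 9.20 in space flight and 7.59 and 7.80 in ground control. For 7 of 10 macrophage genes both space flight arrays lay below both of ground control, where 19.6% of all genes did. The macrophage list's mean levels were 10.87 and 11.14 in space flight and 11.19 and 11.46 in ground control, with 0 of the 10 genes dim. Of the B cell list 2 of 4 genes, and all genes of the T cell (4) and mast cell (5) lists, were dim. In such mixed cultures fewer cells of a type and less RNA per cell cannot be told apart, and the part of the cell mix in the values below was not tested.

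Heat shock factor binds alternating GAA and TTC units spaced by 2 bases, and the stretches below show where such letters stand in the promoters of members, with the units in capitals. Promoter windows come from RefSeq (build GRCm38.p6) and run from 250 bases before to 50 after a gene's start. They were found for 41 of the 50 member genes, in 56 windows. Pairs of units, spelled GAANNTTC or TTCNNGAA (each its own reverse complement, so both strands are covered), stood in 11 of these 56 windows, 19.6% where 15.1% of all 32851 windows hold one. Runs of 3 units stood in 2 of the 56, or 3.57% against 0.603% of all, and both are overlapping windows of 1 gene, Dnajb6, with the same stretch. Counted by gene, that is 1 of 41, or 2.44% against 0.662% of all genes with a window. The stretches shown are those of the member genes that hold such letters, apart from the dim ones and Dnajc27, and Hspa1b, the inducible Hsp70 partner, is set beside them. Dnajb6 (chr5:29735836-29735880, plus strand), Dnaja1 (chr4:40722328-40722367, plus), Dnajb4 (chr3:152193836-152193875, minus), Dnajc10 (chr2:80315268-80315307, plus), Cct2 (chr10:117063394-117063433, minus), Cct5 (chr15:31601857-31601896, minus), Cct6a (chr5:129787364-129787403, plus) and Hspa1b (chr17:34959319-34959358, minus) read, 5′ to 3′:
Dnajb6: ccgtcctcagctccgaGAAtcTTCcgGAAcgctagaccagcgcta
Dnaja1: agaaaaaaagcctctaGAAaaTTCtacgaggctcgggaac
Dnajb4: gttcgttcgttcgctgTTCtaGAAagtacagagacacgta
Dnajc10: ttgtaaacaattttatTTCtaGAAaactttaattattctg
Cct2: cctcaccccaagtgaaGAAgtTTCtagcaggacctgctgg
Cct5: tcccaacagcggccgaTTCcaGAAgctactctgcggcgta
Cct6a: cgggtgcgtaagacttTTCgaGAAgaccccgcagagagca
Hspa1b: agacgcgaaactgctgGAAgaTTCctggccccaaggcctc

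Neither window of Dnajb1 holds a pair, which says only that these letters are not in those bases. The match in Cct2 starts 42 bases and that in Cct5 34 bases before the start, while that of Dnaja1 starts 124 bases before it. The genes shown did not share a direction: Dnaja1, Cct5, Cct6a and Hspa1b stood above 0 and Dnajb6, Dnajb4, Dnajc10 and Cct2 below it. The groups overlapped in Cct5 and Cct6a and were apart in the other genes shown, where 41% of all genes were apart. They also overlapped in Dnajc27, Dnaja4 and Dnajc5g, the members that hold such letters but are not shown. Whether genes with these letters differ from others was not tested.

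No subunit of the TRiC ring passed the test. All 8 had differences smaller than 0.5 on their brightest probe set, as 62.3% of all genes did, 5 above 0 and 3 below. Cct4 read 13.93 and 14.06 in space flight (arrays 1 and 2, in this order throughout) and 13.69 and 13.48 in ground control. Both flight values were the higher ones, and the difference was 0.40 ± 0.18 (SE, n = 2 arrays per group; 1.32-fold; limma adjusted p = 0.576). Cct7 read 13.26 and 12.82 in space flight and 12.77 and 12.49 in ground control. Its groups were also separate, though the lower flight array nearly met the higher ground array, and the difference was 0.40 ± 0.22 (SE; limma adjusted p = 0.649). Cct2 was the subunit with the opposite order, at 13.36 and 13.35 in space flight and 13.89 and 13.58 in ground control. That is a difference of −0.38 ± 0.19 (SE; 0.767-fold; limma adjusted p = 0.613).

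In the other 5 subunits the groups overlapped. Of the 8 subunits, 2 (25%) had both flight arrays above both ground arrays, where 21.5% of all genes did. In 1 (12.5%) both lay below, where 19.6% of all genes did. Cct5 read 13.22 and 12.81 in space flight and 12.93 and 12.57 in ground control, a difference of 0.26 ± 0.22 (SE). Cct6a (0.14 ± 0.18, SE), Cct8 (0.13 ± 0.20), Cct3 (−0.01 ± 0.17) and Tcp1 (−0.07 ± 0.18) stood closer to 0. Under the shift to 1 median Cct8 turned to −0.11, and Cct3 was above 0 as deposited (0.08) and under cyclic loess (0.01). For Cct3, where groups met most closely, the 95% interval of the difference ran from −0.41 to 0.38, and for Cct4 it ran from −0.01 to 0.81. So the arrays could not tell a subunit that stayed level from one that differed by these amounts.

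**Figure D1:**
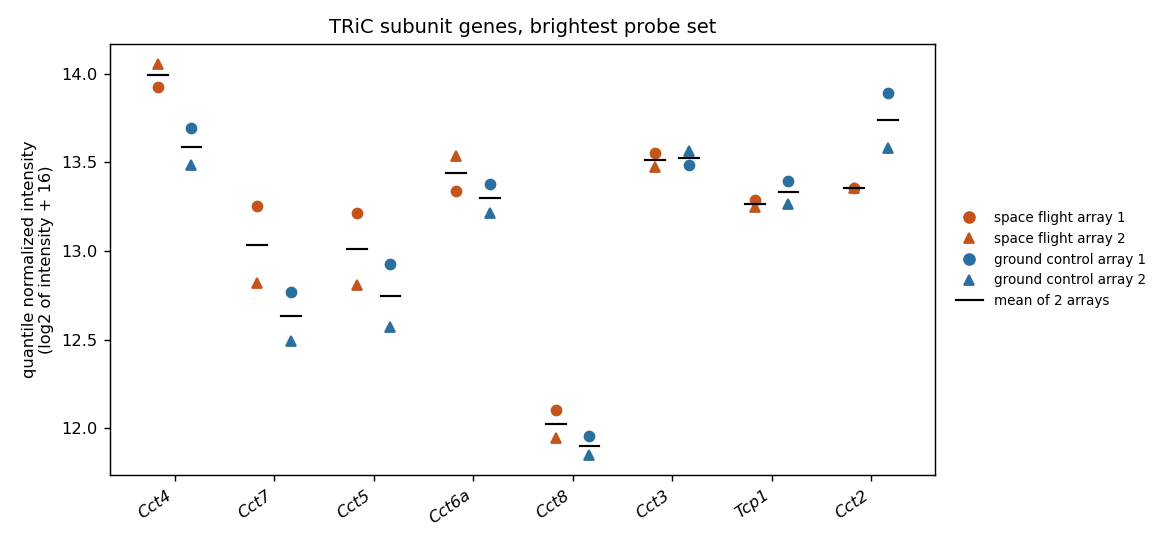
Quantile normalized log2 intensity of the 8 TRiC subunit genes on each array, by brightest probe set, with space flight left of ground control and bars for the mean of 2 arrays. Cct4 and Cct7 have both space flight points above both ground control points, Cct2 has both below, and the other 5 overlap. Of all genes, 21.5% have both above and 19.6% both below. Heights are not comparable between genes, since probe sets bind with different strength.

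Further probe sets gave a mixed account of the same subunits. The brightest probe sets of Cct4 and Cct2, whose values are given above, are of a class that can also bind other transcripts. For Cct4 a second probe set, of the same class, stood at 0.66 ± 0.18 (SE), the largest difference of a TRiC probe set, and was 1 of the 4 members higher before adjustment (limma adjusted p = 0.399). It read 13.07 and 13.13 in space flight and 12.48 and 12.40 in ground control. The 4 other Cct4 probe sets above the dim limit ran from −0.23 to 0.26. Cct2 stood below 0 on each of its 3 probe sets, at −0.56, −0.26 and −0.38, and the first of them (12.36 and 12.13 in space flight against 13.10 and 12.51 in ground control) was among the 3 members lower before adjustment (limma adjusted p = 0.555). Cct7 gave 0.40 and 0.53 on its 2 probe sets, while Cct6a gave 0.14 and −0.20. Those of Cct3 above the dim limit ran from −0.41 to 0.17.

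Cytosolic and nuclear DnaJ proteins, the ones that work with Hsp70 on most newly made and damaged proteins, were split evenly. Of 12 genes 6 stood above 0 and 6 below, and 9 had groups that did not overlap, 5 above and 4 below, with a dim gene among each. Of all genes 21.5% had both flight arrays above and 19.6% below, and whether these 12 differ from that was not tested. Dnajb1, the heat-inducible Hsp40, read 11.99 and 12.34 in space flight and 11.88 and 11.99 in ground control. Its groups all but touched, and the difference was 0.23 ± 0.21 (SE, n = 2 arrays per group; limma adjusted p = 0.791), with 0.31 on its other probe set and 0.06 without space flight array 2. Dnaja1, the abundant class A partner of Hsp70, read 13.11 and 13.19 in space flight and 13.01 and 12.95 in ground control. Here too the flight values were both higher, by 0.17 ± 0.18 (SE; limma adjusted p = 0.820). Its other probe sets gave 0.39 and 0.54, and the value of 0.54, from 11.70 and 11.55 in space flight against 10.98 and 11.19 in ground control, was among the 4 higher members (limma adjusted p = 0.524).

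Dnajb2, which in humans is enriched in neurons and links Hsp70 clients to the proteasome, read 10.02 and 9.97 in space flight and 9.58 and 9.31 in ground control. Its flight replicates lay close together and above both ground arrays, with a difference of 0.55 ± 0.27 (SE; limma adjusted p = 0.610). Among the lower genes was Dnajb6, a suppressor of protein aggregation, at 12.69 and 12.66 in space flight and 13.07 and 12.98 in ground control. That difference of −0.35 ± 0.18 (SE; 0.783-fold; limma adjusted p = 0.628) came from its brightest probe set, while the others gave 0.02, −0.30 and −0.04. Dnajb4, a close relative of Dnajb1, read 11.09 and 10.55 in space flight and 11.16 and 11.49 in ground control, a difference of −0.50 ± 0.26 (SE; limma adjusted p = 0.632), with −0.15 and 0.38 on its other probe sets. Dnajb3, Dnajb7, Dnajb13 and Dnaja4 were dim on every probe set, so that their differences, from −0.86 to 1.00, rest on faint signal.

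Dnaja2, the second class A partner of Hsp70 in the cytosol, gave opposite answers by probe set. The brightest read 13.39 and 12.88 in space flight and 12.86 and 12.75 in ground control, a difference of 0.34 ± 0.22 (SE; limma adjusted p = 0.713). The faintest of its 4 probe sets read 8.69 and 8.85 in space flight and 9.75 and 10.18 in ground control, all flight values lower, by a difference of −1.20 ± 0.30 (SE; 0.436-fold; limma adjusted p = 0.385). The next faintest stood at −1.15 ± 0.40 (SE; limma adjusted p = 0.479), and the remaining one at 0.32 ± 0.30. Both lower readings were the other 2 of the 3 members lower before adjustment, on the opposite side of 0 from the brightest probe set of the same gene.

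**Figure D2:**
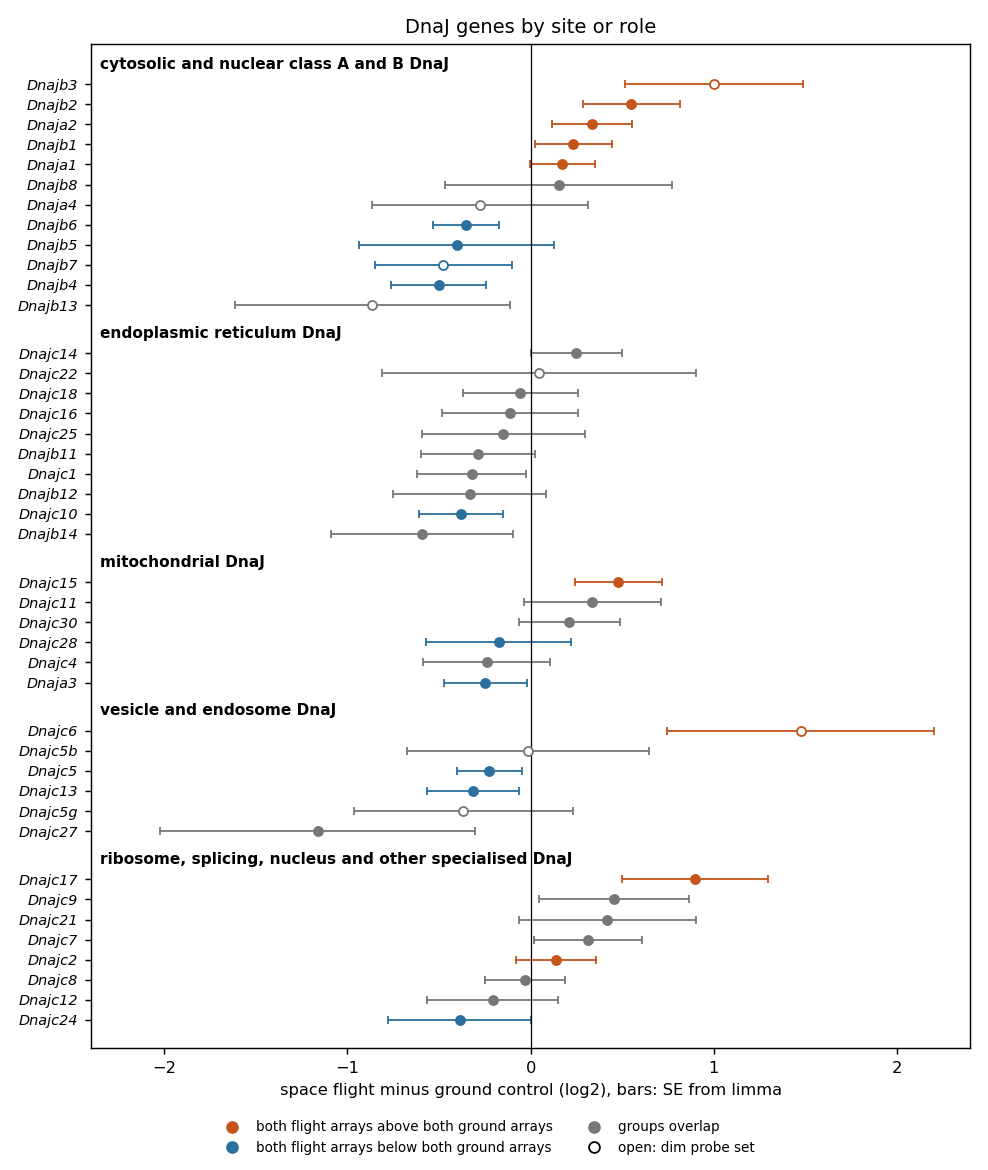
Difference between space flight and ground control (log2, bars are SE from limma) of each of the 42 DnaJ genes by its brightest probe set, grouped by the site or task of the protein. Orange marks the 9 genes with both flight arrays above both ground arrays, or 21.4% where 21.5% of all genes were. Blue marks the 10 with both below, or 23.8% where 19.6% of all genes were, and grey the 23 whose groups overlap. The 8 open symbols are dim, and no gene passed the test.

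DnaJ proteins of the endoplasmic reticulum, which serve the Hsp70 chaperone BiP in folding and in the removal of failed proteins, stood below 0 in 8 of 10 genes. Their median was −0.22, and 1 of the 10, Dnajc10, had groups that did not overlap, as 41% of all genes did. Without space flight array 1 the median was −0.06 and without space flight array 2 it was −0.07, with 5 of 10 genes above 0 in both cases. It was −0.33 without ground control array 2 and −0.43 with each array shifted to 1 median. Dnajc10, a disulfide reductase that loosens misfolded proteins for export, read 11.42 and 10.99 in space flight and 11.64 and 11.53 in ground control. The flight values were both lower, by a difference of −0.38 ± 0.23 (SE; limma adjusted p = 0.691), against 0.02 and −0.52 from its further probe sets. Dnajb11, a soluble partner of BiP, read 10.67 and 9.81 in space flight and 10.58 and 10.48 in ground control. Its low value was that of space flight array 2, and the difference of −0.28 ± 0.31 (SE) was 0.15 without that array. Dnajb14, a membrane-anchored member, read 9.34 and 11.13 in space flight and 10.64 and 11.01 in ground control, so that its difference of −0.59 ± 0.50 (SE) was 0.31 without space flight array 1. Dnajc14, a membrane protein that aids the transport of receptors to the cell surface, stood at 0.25 ± 0.25. Its other probe sets gave −0.20 and 0.45. Dnajc1, a J protein that can bind ribosomes, was named after its values were seen and stood below 0 on all 6 of its probe sets, 5 of them above the dim limit at −0.75 to −0.24. The brightest read 11.60 and 12.55 in space flight and 12.40 and 12.39 in ground control, with overlapping groups. Its difference of −0.32 ± 0.30 (SE) was 0.16 without space flight array 1. The next brightest also overlapped and was 0.01 without that array.

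Mitochondrial members were few and mixed, 3 above 0 and 3 below. Dnajc15, which sits in the inner membrane and restrains the respiratory chain, read 11.03 and 11.49 in space flight and 10.75 and 10.81 in ground control. Both flight arrays were higher, with a difference of 0.48 ± 0.24 (SE; 1.39-fold; limma adjusted p = 0.620), and the gene has 1 probe set only. Dnaja3, the matrix partner of mitochondrial Hsp70, read 10.60 and 10.43 in space flight and 10.74 and 10.78 in ground control, a difference of −0.25 ± 0.23 (SE). Its other probe sets gave −1.04 and, below the dim limit, 0.60. Its partner, mitochondrial Hsp70 itself (Hspa9), read 14.67 and 14.34 in space flight and 14.09 and 13.97 in ground control, a difference of 0.47 ± 0.19 (SE; limma adjusted p = 0.531).

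Vesicle and endosome members stood below 0 in 5 of 6 genes, and 3 of the 6 were dim. Their median of −0.27 was −0.06 without space flight array 2 and −0.07 without ground control array 2, where 3 of the 6 stood above 0. It was −0.49 without ground control array 1 and −0.42 with each array shifted to 1 median. Dnajc5, the cysteine string protein of secretory vesicles, read 12.72 and 12.66 in space flight and 12.91 and 12.91 in ground control. The flight arrays were both lower by a small and even amount, −0.22 ± 0.18 (SE; limma adjusted p = 0.769). Its 4 other probe sets did not share that, at −0.24, 0.14, 0.03 and 0.81, and the last (9.19 and 9.65 in space flight against 8.41 and 8.80 in ground control) was among the 4 higher members (limma adjusted p = 0.540). Dnajc13, which sorts cargo on endosomes, read 10.74 and 10.27 in space flight and 10.82 and 10.82 in ground control, a difference of −0.31 ± 0.25 (SE). Dnajc27, a Rab-like J protein, ranged from 5.02 to 7.56 within space flight, and its difference of −1.16 ± 0.86 (SE) was 0.11 without space flight array 2. Its other probe set, below the dim limit, gave 0.15. Dnajc6, the clathrin-uncoating factor auxilin, was named after its values were seen, since it supplied the remaining 1 of the 4 higher members. That probe set read 6.02 and 6.31 in space flight and 4.38 and 5.18 in ground control (limma adjusted p = 0.566), below the dim limit.

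Members with tasks at the ribosome, in splicing, in the nucleus or with other special tasks stood above 0 in 5 of 8 genes. Their median was 0.23, which was −0.01 with each array shifted to 1 median. Dnajc17, a nuclear J protein tied to splicing, had the largest difference of any DnaJ gene above the dim limit apart from Dnajc27. It read 11.66 and 13.04 in space flight and 11.25 and 11.66 in ground control. The difference of 0.90 ± 0.40 (SE; 1.86-fold; limma adjusted p = 0.574) was carried by space flight array 2 and was 0.21 without it. The other probe set above the dim limit gave 0.24, at a mean level of 6.93 beside 11.91 for the brightest. Dnajc9, a chaperone of histones, stood at 0.46 ± 0.41 with overlapping groups, as did Dnajc7, which binds both Hsp70 and Hsp90, at 0.31 ± 0.30 (SE). Without ground control array 2 these were 0.08 and −0.04. Dnajc2, a J protein at the ribosome's exit tunnel, read 11.00 and 11.22 in space flight and 10.97 and 10.97 in ground control, a difference of 0.14 ± 0.22 (SE) that turned to −0.11 with arrays shifted to 1 median. Its other probe sets above the dim limit gave 0.39 and −0.41. Dnajc8, a splicing factor, stood at −0.03 ± 0.22, with 0.24 on its other probe set. Dnajc21, which takes part in making the large ribosomal subunit, was also named after its values were seen. It stood above 0 on all 5 of its probe sets. The 3 above the dim limit stood at 0.42 to 0.95, with overlapping groups in each. The brightest read 8.81 and 10.36 in space flight and 9.43 and 8.90 in ground control. Its difference of 0.42 ± 0.48 (SE) was −0.36 without space flight array 2.

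**Figure D3:**
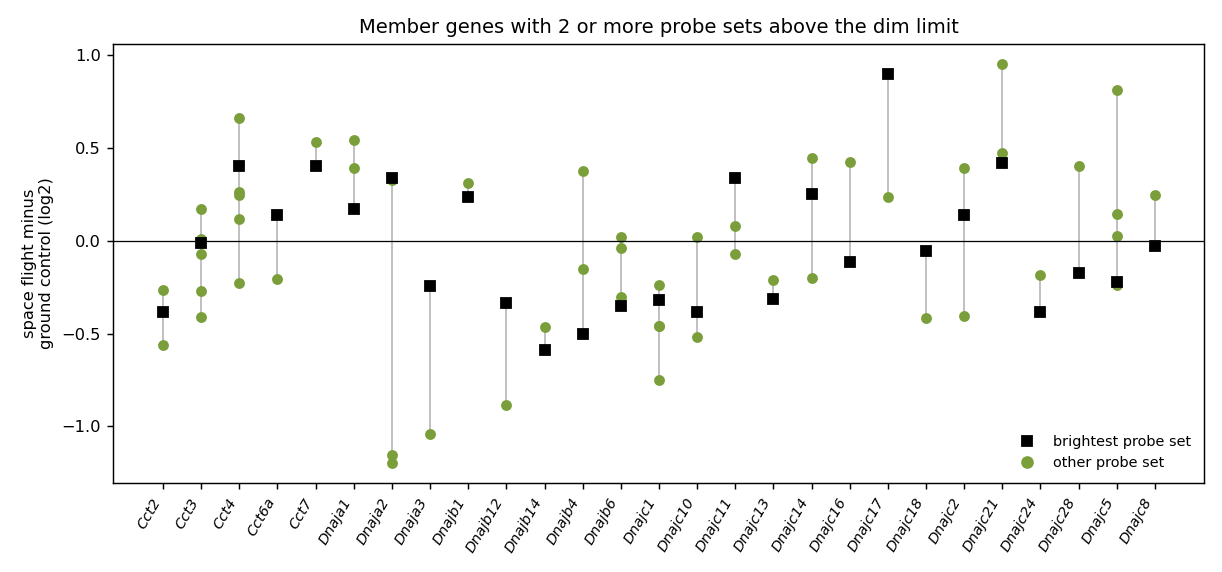
Difference between space flight and ground control (log2) on every probe set above the dim limit, for the 27 member genes with 2 or more of them; squares are the brightest probe set, circles the others. In 13 genes all points lie on 1 side of 0 and in 14 they lie on both, with the widest span in Dnaja2, from −1.20 to 0.34.

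Agreement between probe sets of a gene was thus limited. Of 33 members with more than 1 probe set, 27 had 2 or more above the dim limit, and in 14 of these the probe sets pointed in opposite directions. Cct2, Cct7, Dnaja1, Dnajb1, Dnajb14, Dnajc1, Dnajc13 and Dnajc21 were among the 13 that pointed 1 way. In 28 of the 123 member probe sets the mean lay below the dim limit, and 8 of the 50 genes had no brighter probe set.

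The chaperones that work with these families were set beside them by lists of their own, and none of their genes passed the test either. Inducible Hsp70, the partner that DnaJ proteins serve, differed most. Hspa1b read 13.01 and 12.00 in space flight and 9.64 and 10.70 in ground control, and Hspa1a, a near-identical copy, 12.37 and 11.75 in space flight and 10.22 and 10.81 in ground control. The groups were well apart in both, with differences of 2.33 ± 0.41 and 1.55 ± 0.29 (SE; limma adjusted p = 0.237 and 0.272). Constitutive Hsp70, Hspa8, stood at −0.03 ± 0.17, and Hspa13, an Hsp70 relative of the endoplasmic reticulum, at −0.64 ± 0.21 (SE; limma adjusted p = 0.452). Over the 12 Hsp70 genes 2 were higher and 1 lower at an unadjusted p under 0.05, where 5.07% and 5.06% of all genes were. The 2 higher ones were Hspa1b and its near-identical copy Hspa1a. Whether the probe sets of this pair read each other's transcript was not tested. The list's median of −0.05 had no settled sign. It was 0.14 as deposited, 0.20 without space flight array 2, 0.03 without ground control array 1 and 0.17 without ground control array 2.

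Among regulators of Hsp70, Hspbp1, a nucleotide exchange factor, read 10.17 and 10.17 in space flight and 9.14 and 9.39 in ground control, a difference of 0.90 ± 0.26 (SE; limma adjusted p = 0.414). Bag2, which opposes the ubiquitin ligase Stub1, stood at −0.88 ± 0.41 and Stub1 at 0.37 ± 0.22. In the Hsp90 list Stip1, the adaptor that passes clients between Hsp70 and Hsp90, read 9.49 and 9.46 in space flight and 8.77 and 8.74 in ground control, a difference of 0.72 ± 0.29 (SE; limma adjusted p = 0.536). Fkbp5, an Hsp90 co-chaperone of steroid receptors, stood at 1.33 ± 0.55 and Hsp90aa1 at 0.11 ± 0.18. The medians were 0.17 over 11 Hsp70 regulators and 0.08 over 9 genes of the Hsp90 list, and with each array shifted to 1 median they were −0.07 and −0.16.

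Prefoldin delivers actin and tubulin chains to TRiC, and its list also held the relatives Uxt and Pdrg1. The list stood above 0 in 7 of 8 genes. Both flight arrays lay above both ground arrays in 5 of them, Uxt and Pdrg1 included, where 21.5% of all genes did so. Whether the list differs from other genes was not tested. Pfdn6 read 12.17 and 12.33 in space flight and 11.51 and 11.29 in ground control, a difference of 0.85 ± 0.20 (SE; 1.80-fold; limma adjusted p = 0.360). Pfdn2 read 10.97 and 9.82 in space flight and 9.15 and 9.07 in ground control, a difference of 1.28 ± 0.38 (SE; limma adjusted p = 0.414). The groups were separate in both, and in Uxt, a prefoldin relative, at 0.44 ± 0.25. The list's median of 0.44 was 0.24 without space flight array 2, 0.66 without space flight array 1 and 0.21 with arrays shifted to 1 median. Whether prefoldin and TRiC genes differed from each other was not tested. Regulators of TRiC of the phosducin-like family were mixed: Txndc9 stood at −0.34 ± 0.19 and Pdcl3 at 0.33 ± 0.27, while Pdcl2, a dim gene, stood at 0.43 ± 0.60. Of the small and mitochondrial heat shock proteins, Hspe1, the lid of the mitochondrial chaperonin, read 12.89 and 12.24 in space flight and 12.17 and 12.30 in ground control. Its difference of 0.33 ± 0.24 (SE) was 0.0018 without space flight array 1. Hspb1, a small heat shock protein, read 8.05 and 8.60 in space flight and 7.45 and 8.06 in ground control, and its difference of 0.57 ± 0.43 (SE) was 0.26 without ground control array 1. Their list also held Hsf2, at −0.78, and Serpinh1, at 0.41. Its median over 8 genes was 0.31, and 0.16 with each array shifted to 1 median.

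**Figure D4:**
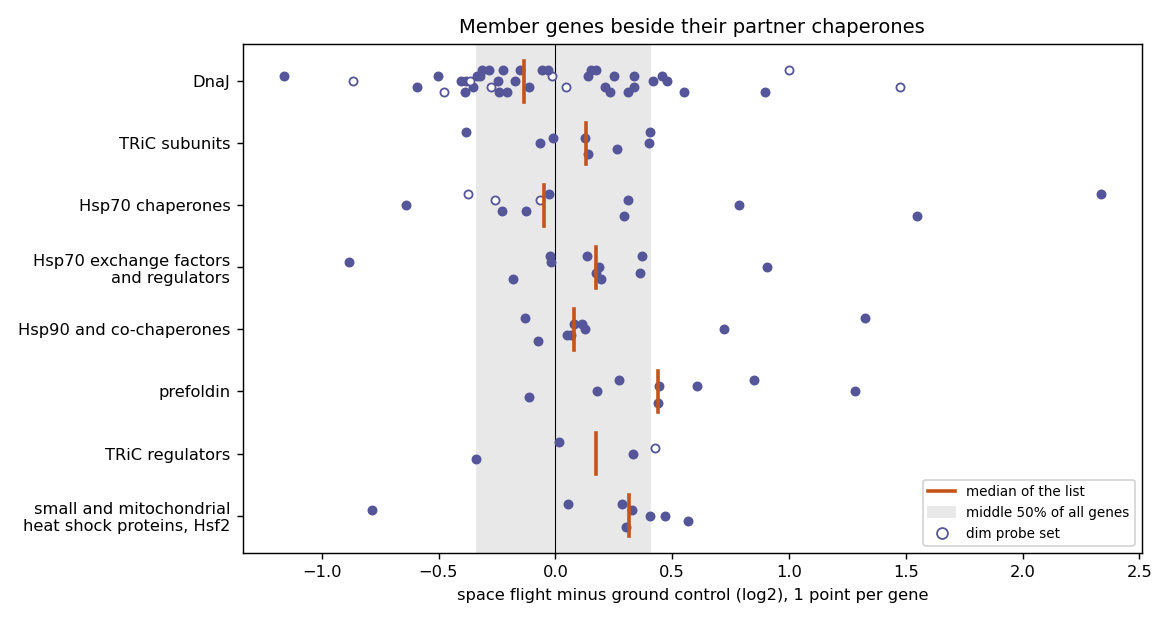
Difference between space flight and ground control (log2) of each gene by its brightest probe set, for the DnaJ and TRiC genes and 6 lists of partner chaperones. Bars are list medians, and the grey band runs from the lower to the upper quartile of all genes, −0.34 to 0.41. DnaJ genes run from −1.16 to 1.47 and TRiC genes from −0.38 to 0.40, while Hspa1a and Hspa1b stand at 1.55 and 2.33.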

How the data were processed

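RNA of 4 culture pools was amplified in 2 rounds and hybridised to Affymetrix mouse arrays, per the labels' protocols. The deposited file holds 1 linear intensity per probe set and array, from the software GCOS per the submitters' processing notes. Its version and algorithm, and the genome build, were not given in the sources used here. Without the top and bottom 2% of values, every array averaged 500.004. The number of arrays limits the precision.

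From these, log2(intensity + 16) was taken, 64 control probe sets were dropped, and the arrays were quantile normalized because their medians differed by up to 0.38. Fold changes on this scale understate those of dim genes. The remaining 45037 probe sets were fitted without a filter in limma 3.58.1 under R 4.3.3 (lmFit, eBayes with an intensity trend, two-sided, 2 residual and 8.55 moderated degrees of freedom); the fit was tested on simulated data. With 2 arrays per group, the smallest two-sided p of an exact permutation test is 0.333. Platform annotation gave 34945 probe sets 1 symbol, 932 several and 9160 none; 34741 of the single symbols were found in RefSeq by gene identifier.

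Members and lists were chosen with earlier results of these data known. Named genes were the TRiC subunits, the 8 DnaJ genes with the highest and the 8 with the lowest moderated statistic above the dim limit, the 5 brightest DnaJ genes, 8 well-known ones and 3 of each partner list. Hsp90ab1, Ptges3, Ppid and Hsf1 have no probe set of their own symbol here. Protein sequences were not used here. Alternatives covered scaling, pseudocount, filter, variance prior, probe set choice, replicate block and leaving out each array.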

Additional observations from a re-analysis of the deposited data

How the results depend on the processing

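Member probe sets called at the threshold numbered 0 in either direction under all 13 alternatives. Over all probe sets, 0 were called higher and 0 lower, and the counts were 10 and 1 with only probe sets above the dim limit, 6 and 1 with a pseudocount of 1, 4 and 0 with values as deposited, and 118 and 113 with a replicate block. The block also passed Hspa1b (adjusted p = 0.00135) and Hspa1a (adjusted p = 0.00987). Replicate numbers gave a correlation of 0.03 between the groups' replicate differences (0.07 above the dim limit), and with 2 pairs the pairing is not established. At an unadjusted p under 0.05, member counts were 4 higher and 3 lower, 1 and 1 without an intensity trend (3.71% and 3.91% of all), and 1 and 0 with 1 probe set per gene (5.36% and 5.31% of all). The median of all genes was −0.10 with arrays shifted to 1 median and 0.10 with values as deposited. The TRiC median of 0.13 was −0.054 with the shift and 0.053 to 0.20 with 1 array left out. The DnaJ median of −0.13 ran from −0.10 to −0.01 with 1 array left out and was −0.31 with the shift. Among 46 named genes the sign turned for Cct3 (0.080 as deposited, 0.013 with cyclic loess), Cct8 (−0.11) and Dnajc2 (−0.11) with the shift. With 1 array left out, the ranges that crossed 0 were −0.050 to 0.030 for Cct3, −1.49 to 0.31 for Dnajb14, −2.43 to 0.11 for Dnajc27, −0.25 to 0.19 for Dnajc8, −0.71 to 0.15 for Dnajb11, −0.038 to 0.66 for Dnajc7 and −0.036 to 0.89 for Pdcl2. Those fits take a group's single array to be as variable as the other group. The cause was not tested.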
